A study of Mus musculus with 6 samples.

Results

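The genes described here encode the machinery that copies DNA, measured as RNA in 2-cell mouse embryos after culture with the small molecule MS-444 or with the solvent DMSO. The set was a list of 46 gene symbols, chosen by function and not by a rule on measured values, though earlier results of these data were known. Each of the 46 had a row among the 29139 genes of the count table. Of these, 45 passed the filter on low counts and were tested, and Pold1 was not. All embryos were of the ICR strain, an outbred laboratory stock, and grew in KSOM, a culture medium used for early embryos. The 3 DMSO libraries came from embryos given 0.1% DMSO and the 3 MS-444 libraries from embryos given 75 µM MS-444, a compound reported to inhibit the RNA-binding protein HuR. The DMSO content of the MS-444 cultures is not stated. Each lysate held 16 embryos, so a library is a pool. Per the labels, cDNA of all samples was combined for purification, and how the samples were told apart afterwards is not stated. Neither the culture time nor separate mothers or cultures for the replicates are stated, and p-values therefore measure the spread between these pools, which may be technical.

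Before S phase, the origin recognition complex (ORC) marks replication origins, and Cdc6 and Cdt1 load rings of Mcm2 to Mcm7, the core of the replicative helicase, while geminin (Gmnn) blocks Cdt1. The kinase pair of Cdc7 and Dbf4 then helps to turn the loaded rings into active helicases by recruiting Cdc45 and the GINS complex. Polymerase alpha and primase make the primers, polymerases epsilon and delta extend them, RPA coats single strands, and RFC loads the sliding clamp PCNA, after which Fen1 and Lig1 process and seal the lagging strand. In mouse embryos the first rounds of replication draw on proteins and mRNAs stored in the oocyte, and the embryo's own genome is activated at the 2-cell stage.

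Many replication genes are textbook targets of E2F, a transcription factor family of the G1 to S transition. RefSeq promoters (build GRCm38.p6, 250 bases before to 50 bases after each gene start) could be matched to 38 members. They were searched on both strands for the E2F-type letters TTTCCCGC, TTTCGCGC, TTTGCCGC and TTTGGCGC. Of the 38 members, 16 (42.1%) held at least 1 match, against 4.74% of the 8635 tested genes with a promoter and 2.60% of the 27025 genes of the promoter table. A match is a description of letters and not a measured binding site. The 4 promoters below belong to a pair of genes that rose under MS-444 (Mcm3 and Mcm5) and a pair that fell (Orc3 and Pold3). They are shown because matches stood on both sides, and capitals mark the matched letters on either strand.
Mcm3 (chr1:20820263-20820562, minus strand): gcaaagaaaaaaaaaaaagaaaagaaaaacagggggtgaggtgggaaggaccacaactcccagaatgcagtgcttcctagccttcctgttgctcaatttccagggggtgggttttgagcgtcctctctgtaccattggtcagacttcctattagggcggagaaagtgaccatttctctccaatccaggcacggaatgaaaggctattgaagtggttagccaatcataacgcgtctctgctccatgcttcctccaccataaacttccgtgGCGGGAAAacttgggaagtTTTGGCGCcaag
Mcm5 (chr8:75109259-75109558, plus strand): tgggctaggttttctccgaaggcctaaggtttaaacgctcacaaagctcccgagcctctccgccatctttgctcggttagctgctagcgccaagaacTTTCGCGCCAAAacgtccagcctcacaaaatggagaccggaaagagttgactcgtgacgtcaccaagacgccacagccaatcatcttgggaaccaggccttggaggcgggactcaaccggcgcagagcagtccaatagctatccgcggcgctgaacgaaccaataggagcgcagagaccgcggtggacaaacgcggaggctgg
Orc3 (chr4:34614893-34615192, minus strand): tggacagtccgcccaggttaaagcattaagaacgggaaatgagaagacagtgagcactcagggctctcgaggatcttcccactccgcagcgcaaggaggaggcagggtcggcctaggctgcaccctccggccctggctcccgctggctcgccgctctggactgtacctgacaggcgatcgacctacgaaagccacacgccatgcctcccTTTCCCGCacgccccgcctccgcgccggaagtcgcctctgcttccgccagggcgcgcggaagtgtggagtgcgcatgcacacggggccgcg
Pold3 (chr7:100121453-100121752, minus strand): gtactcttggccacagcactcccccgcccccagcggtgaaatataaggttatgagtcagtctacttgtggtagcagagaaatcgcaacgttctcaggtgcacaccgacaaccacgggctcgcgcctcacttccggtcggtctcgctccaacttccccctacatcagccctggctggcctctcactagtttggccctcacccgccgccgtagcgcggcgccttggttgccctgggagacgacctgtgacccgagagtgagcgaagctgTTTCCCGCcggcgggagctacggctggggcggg
In the Mcm5 promoter TTTCGCGC on the printed strand and TTTGGCGC on the other strand share letters, so that the capitals form 1 run. The matches of Orc3 and Mcm5 lay before the gene start, and those of Mcm3 and Pold3 within the first 50 transcribed bases. No match was found for Rpa1, which fell, or for Prim1, which rose. Gins1 and Pole, which also rose, had no matched promoter and were not searched. Across the table, 3.72% of the 1209 genes called higher and 4.08% of the 1006 called lower that had a promoter held a match.

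Library totals ranged from 2637763 to 4695866 counts. Levels are given as CPM, a gene's count relative to the TMM-scaled total of its library. Such levels are relative, and in these pools fewer cells of a kind and less RNA per cell cannot be told apart. All 12 markers of oocytes and 2-cell embryos were detected in the table, with a summed level of 26025 to 27265 CPM in DMSO and 9993 to 14845 CPM in MS-444, most of it from Zbed3. Of these markers 4 fell and 0 rose, and 8 did not pass, among them Tcstv3, at 96.4 to 233.7 CPM in DMSO and 243.6 to 429.3 CPM in MS-444. Of 9 cumulus and granulosa markers 8 had a row, with a sum of 10.8 to 12.8 CPM in DMSO and 24.2 to 26.6 CPM in MS-444. Amhr2 carried that difference (1.84 to 3.32 against 14.3 to 18.2 CPM), Cyp19a1 lay lower in MS-444 (5.197 to 7.37 against 2.43 to 4.03 CPM), and the receptor gene Fshr did not exceed 0.255 CPM in any library. Of 7 blood and immune markers 5 had a row, with a sum of 4.59 to 8.52 CPM in DMSO and 40.04 to 92.9 CPM in MS-444, where Trac held most. Hba-a1 stood at 2.04 to 7.37 CPM in DMSO and 9.52 to 24.2 CPM in MS-444. The 2 tested markers of this list were called higher, while Ptprc, which marks leukocytes, was at 0 in 5 libraries. The 4 liver markers summed to 0.765 to 1.199 CPM in DMSO and 22.7 to 42.9 CPM in MS-444, where Mup3 held most, with Alb at 0.299 CPM or less, and the 4 sperm and testis markers to at most 5.29 CPM. Among tested markers, 1 of 3 for cumulus and granulosa and 1 of 1 for liver were called higher, and 0 of them lower. Trac, Mup3 and Amhr2 were low in DMSO and reached the filter on low counts through the MS-444 libraries. Markers that low in both groups were not tested, so the calls in these lists cannot weigh rises against falls. The share of mitochondrial counts was 3.22% to 3.86% in DMSO and 4.44% to 5.27% in MS-444. The part of these differences in the results below was not tested.

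Under MS-444 the replication genes moved in both directions, and most did not pass. Of the 45 tested members, 5 rose (Mcm3, Mcm5, Gins1, Prim1 and Pole), 3 fell (Orc3, Pold3 and Rpa1) and 37 did not pass an adjusted p of 0.05 (edgeR quasi-likelihood test, two-sided, Benjamini-Hochberg over the 11864 genes tested). The members called thus made up 17.8% of those tested, where 25.5% of all genes were called. By direction, 14.4% of all genes were called higher and 11.1% lower. The median log2 fold change of the members was -0.14, beside 0.02 over all genes tested, with 22 members above 0 and 23 below. The groups did not overlap for 15 members (33.3%), where they did not overlap for 43.9% of all genes. The members together held 0.499% to 0.527% of the counts of a DMSO library and 0.519% to 0.545% of those of an MS-444 library, and these ranges overlapped. On the TMM scale their summed CPM was 5368 to 5627 in DMSO and 4752 to 5256 in MS-444, without overlap, so the direction of the sum depended on the scaling. The members were more abundant than most tested genes, at a median of 60.4 CPM against 21.7 CPM.

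**Figure D1:**
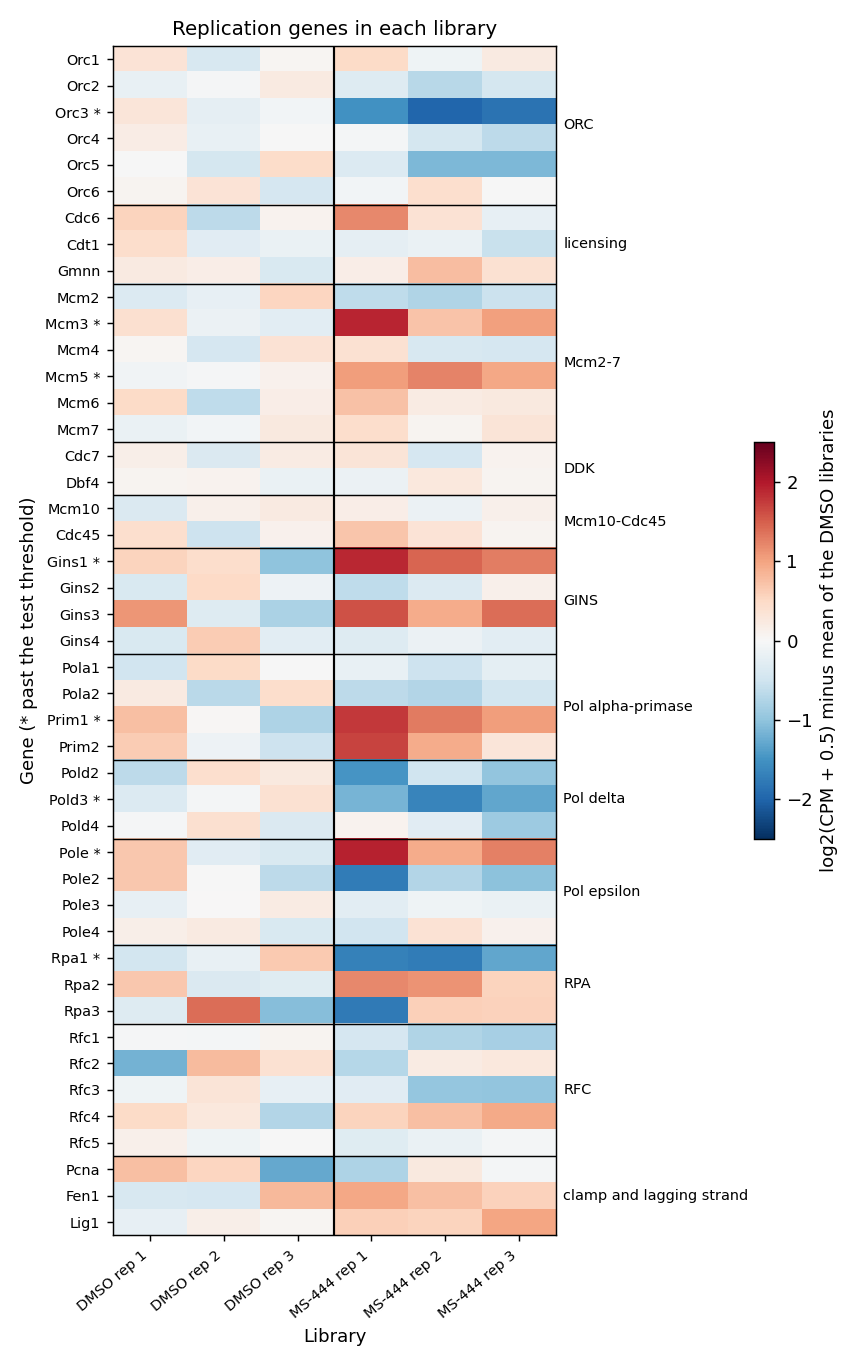
Level of each tested replication gene (rows, grouped by complex) in each library (columns), as log2(CPM + 0.5) minus the mean of the 3 DMSO libraries. Asterisks mark the 8 genes past the threshold; within RPA, Rpa1 fell while Rpa2 lay above DMSO, and within polymerase epsilon, Pole rose while Pole2 lay below.

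The 3 falls held in more of the alternatives than the 5 rises. Orc3, Pold3 and Rpa1 were called in each of the 15 alternatives tried, including those that left out any 1 library. The 5 rises held under each of the 9 alternatives that kept the 6 libraries and without DMSO replicate 1, but not all of them held when another library was left out. Leaving out MS-444 replicate 2, MS-444 replicate 3 or DMSO replicate 2 left 0 of them called. Mcm5 alone was called without DMSO replicate 3 or MS-444 replicate 1. In these 5 fits their log2 fold changes stayed positive, from 0.82 to 1.65, and the adjusted p of the lost calls ran from 0.05 to 0.12 (edgeR). The other genes of the table lost calls too, with 659 to 2099 called higher over the 6 fits that left out 1 library, against 1706 with all.

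**Figure D2:**
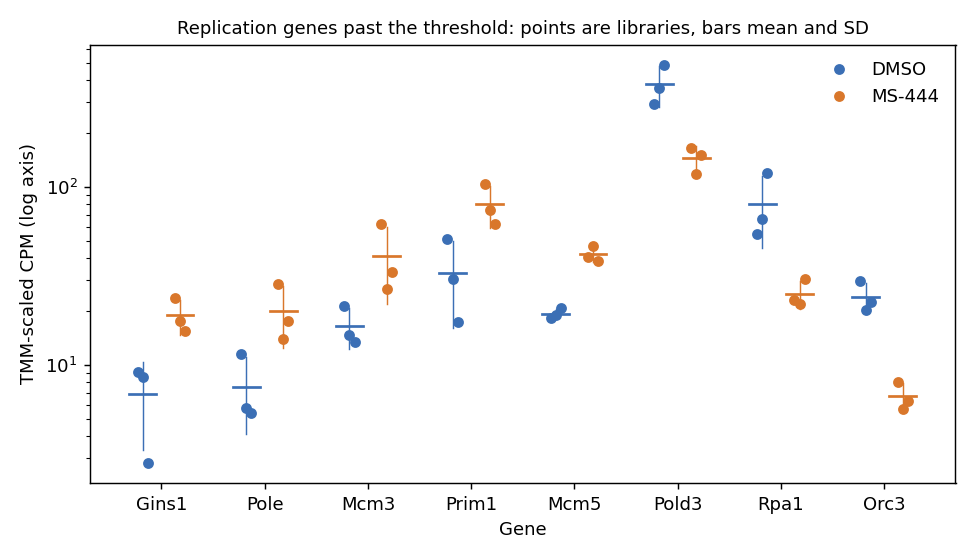
TMM-scaled CPM (log axis) of the 8 replication genes past the threshold, with 1 point per library, the mean as a horizontal bar and the SD as a vertical line. The groups do not overlap for any of the 8. DMSO replicate 1 is the DMSO library nearest to MS-444 for Pole, Mcm3, Prim1 and Gins1, and also for the fallen Pold3 and Rpa1. Over all genes tested, log2 levels of this library correlated at 0.885 to 0.889 with MS-444 libraries, against 0.809 to 0.856 for the other DMSO libraries.

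ORC is the platform on which helicases are loaded, and its members showed 1 fall and 5 genes that did not pass, with a median log2 fold change of -0.43. Orc3 (ENSMUSG00000040044), a core subunit, stood at 29.6, 20.3 and 22.7 CPM in DMSO replicates 1, 2 and 3 and at 8.06, 5.68 and 6.31 CPM in MS-444 replicates 1, 2 and 3. The groups were far apart, and the fall was 3.61-fold (log2 fold change -1.85, SE 0.34, edgeR adjusted p = 0.0066). It rested on 74 to 89 counts per DMSO library and 19 to 26 per MS-444 library. Orc5, an ATP-binding subunit, had the most counts of the complex over the 6 libraries together, though Orc6 led in MS-444. Orc5 stood at 415.0, 308.7 and 579.7 CPM in DMSO and 329.3, 193.9 and 192.4 CPM in MS-444. Its groups overlapped through MS-444 replicate 1, and its log2 fold change of -0.87 (SE 0.31) did not pass (edgeR adjusted p = 0.062). Orc5 passed in 6 of the 15 alternatives, among them DESeq2 (log2 fold change -0.88) and the fit without MS-444 replicate 1. Orc2 had a log2 fold change of -0.49 without overlap of the groups (edgeR adjusted p = 0.15), and Orc4 one of -0.36. Orc1, the subunit that comes and goes with the cell cycle in mammals, had a log2 fold change of 0.19 (SE 0.29), and Orc6 one of 0.10 (SE 0.26).

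None of the 3 regulators of helicase loading passed. Geminin (Gmnn) stood at 370.2, 354.3 and 243.7 CPM in DMSO and 355.7, 540.4 and 411.0 CPM in MS-444, with overlapping groups (log2 fold change 0.43, SE 0.26, edgeR adjusted p = 0.23). Its partner Cdt1, which geminin holds inactive, ranged from 121.1 to 197.9 CPM in DMSO and from 99.2 to 129.9 CPM in MS-444 (log2 fold change -0.34, SE 0.27). Cdc6, the ATPase that loads helicases with ORC, varied more within groups than between them, from 47.9 to 112.3 CPM in DMSO and from 65.3 to 174.0 CPM in MS-444 (log2 fold change 0.48, SE 0.40).

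Within the Mcm2 to Mcm7 ring, whose subunits join in equal numbers in the protein complex, 2 subunits rose and 4 did not pass. Mcm5 (ENSMUSG00000005410) went from 18.4, 19.1 and 20.9 CPM in DMSO to 40.7, 46.9 and 38.6 CPM in MS-444. The DMSO libraries lay close together, and the rise was 2.15-fold (log2 fold change 1.11, SE 0.27, edgeR adjusted p = 0.016). Mcm3 (ENSMUSG00000041859) stood at 21.6, 14.7 and 13.5 CPM in DMSO and 61.9, 26.9 and 33.5 CPM in MS-444. Its rise was 2.46-fold (log2 fold change 1.30, SE 0.38, edgeR adjusted p = 0.031), and without MS-444 replicate 1, the highest library, the log2 fold change was 0.82 (adjusted p = 0.12). Mcm2 pointed the other way, at 135.5, 150.3 and 251.3 CPM in DMSO and 110.6, 101.9 and 118.7 CPM in MS-444. Its groups did not overlap, but its log2 fold change of -0.70 (SE 0.28) did not pass (edgeR adjusted p = 0.094). Mcm2 passed when fits were adjusted for GC content and length (-0.78) and without DMSO replicate 1 (-0.93).

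Mcm4 had the most counts of the ring over the 6 libraries together, though Mcm2 led in DMSO and Mcm6 in MS-444. The groups overlapped for Mcm4, at 165.1, 119.7 and 204.4 CPM in DMSO and 206.6, 120.4 and 118.4 CPM in MS-444. The log2 fold change of Mcm4 was -0.14 (SE 0.31), and those of Mcm6 and Mcm7 were 0.35 (SE 0.31) and 0.27 (SE 0.27). Per kilobase of transcript, the subunits were far from equal. Mcm2 and Mcm4 stood at 51.2 ± 18.04 and 45.4 ± 11.8 CPM per kb in DMSO, Mcm6 at 28.7 ± 10.4, Mcm7 at 12.5 ± 1.94, Mcm5 at 5.76 ± 0.39 and Mcm3 at 4.84 ± 1.27 (SD, n = 3). Mcm5 and Mcm3 were therefore the scarcest of the ring in DMSO, and they were the subunits that rose. In MS-444 they stood at 12.4 ± 1.28 and 11.9 ± 5.42 CPM per kb, next to Mcm7 at 15.2 ± 1.95. Mcm3 and Mcm5 took 2.14% to 4.32% and 3.36% to 4.89% of the ring's summed CPM per kb in DMSO, and 6.07% to 9.94% and 6.63% to 10.7% in MS-444.

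**Figure D3:**
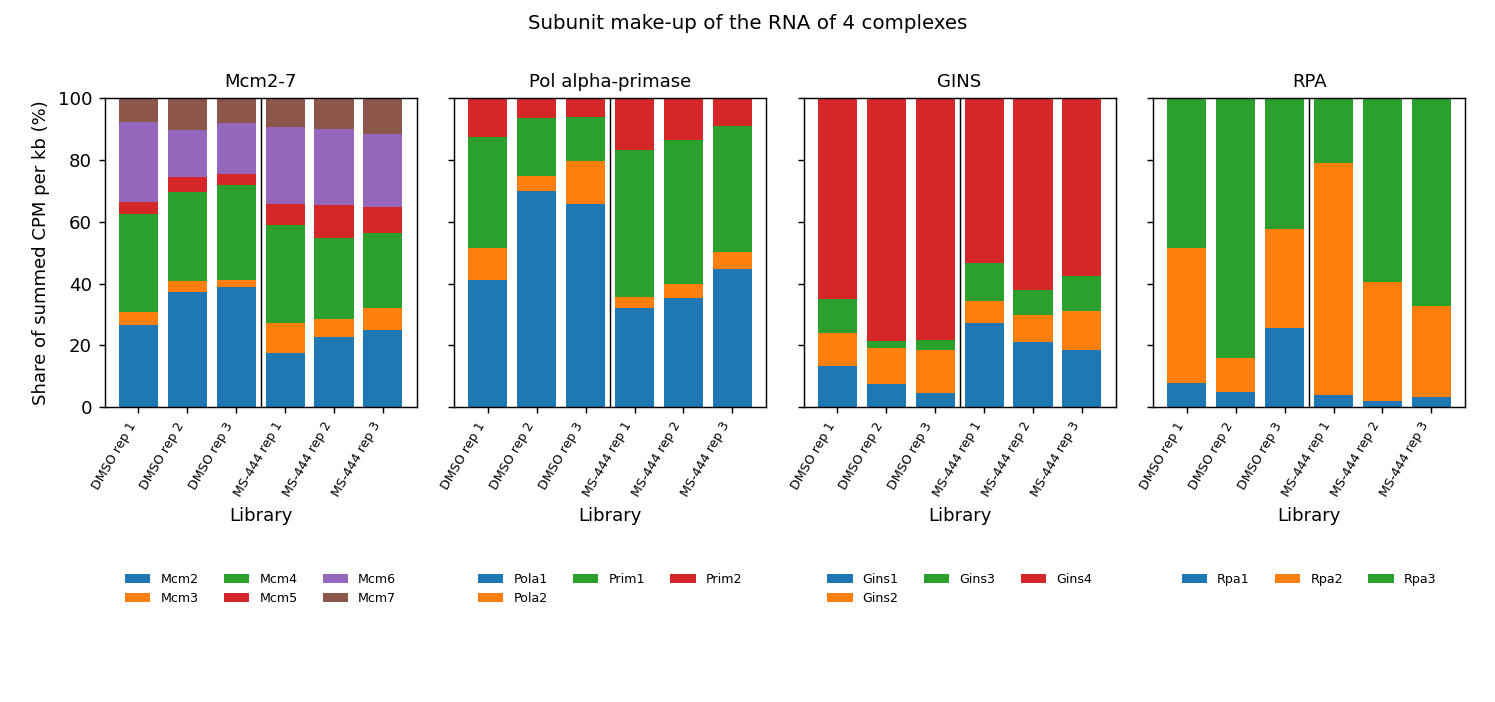
Share of each subunit in the summed CPM per kb of its complex, in percent, for 4 complexes and each library. Gins1 and Prim1 hold larger shares in the MS-444 libraries than in DMSO, Mcm3 and Mcm5 as well, and Rpa1 holds at most 4.01% in MS-444.

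Of the members that act in the step that fires origins, none outside GINS passed. Dbf4, the activating subunit of the Cdc7 kinase, was the most abundant member of all by counts, at 827.9, 844.4 and 708.3 CPM in DMSO and 717.6, 946.4 and 833.5 CPM in MS-444. Its groups overlapped over most of their range (log2 fold change 0.07, SE 0.22). Cdc7, the kinase itself, had a log2 fold change of 0.01 (SE 0.35) on 34 to 62 counts per library, and Dbf4 made up 98.4% to 99.3% of the pair's CPM per kb. Cdc45, a helicase subunit that joins the loaded ring, stood at 151.9, 79.4 and 122.0 CPM in DMSO and 185.4, 144.0 and 119.1 CPM in MS-444, with overlap (log2 fold change 0.35, SE 0.30). Mcm10, which acts at helicase activation, had a log2 fold change of 0.04 (SE 0.27).

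GINS is a ring of 4 subunits that binds the helicase, and 1 of them rose. Gins1 (ENSMUSG00000027454) stood at 9.20, 8.52 and 2.81 CPM in DMSO and 23.8, 17.6 and 15.5 CPM in MS-444, a 2.79-fold rise (log2 fold change 1.48, SE 0.45, edgeR adjusted p = 0.037). All MS-444 libraries were above all DMSO libraries, on 11 to 37 counts in DMSO and 59 to 65 in MS-444. Gins3 had the largest log2 fold change among the positive ones that did not pass, 1.18 (SE 0.50, edgeR adjusted p = 0.10). It stood at 17.6, 6.22 and 4.34 CPM in DMSO and 24.9, 15.5 and 21.6 CPM in MS-444, and DMSO replicate 1 lay within the MS-444 range. Gins3 passed in 3 of the 15 alternatives, among them limma voom (1.46) and the fit without that library (1.90). Gins4 had the most counts of the complex, at 55.6, 112.1 and 60.2 CPM in DMSO and 57.5, 64.8 and 59.7 CPM in MS-444 (log2 fold change -0.33, SE 0.31). Its high DMSO replicate 2 stood apart from the other 5 libraries. Gins2 had a log2 fold change of -0.30 (SE 0.34).

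**Figure D4:**
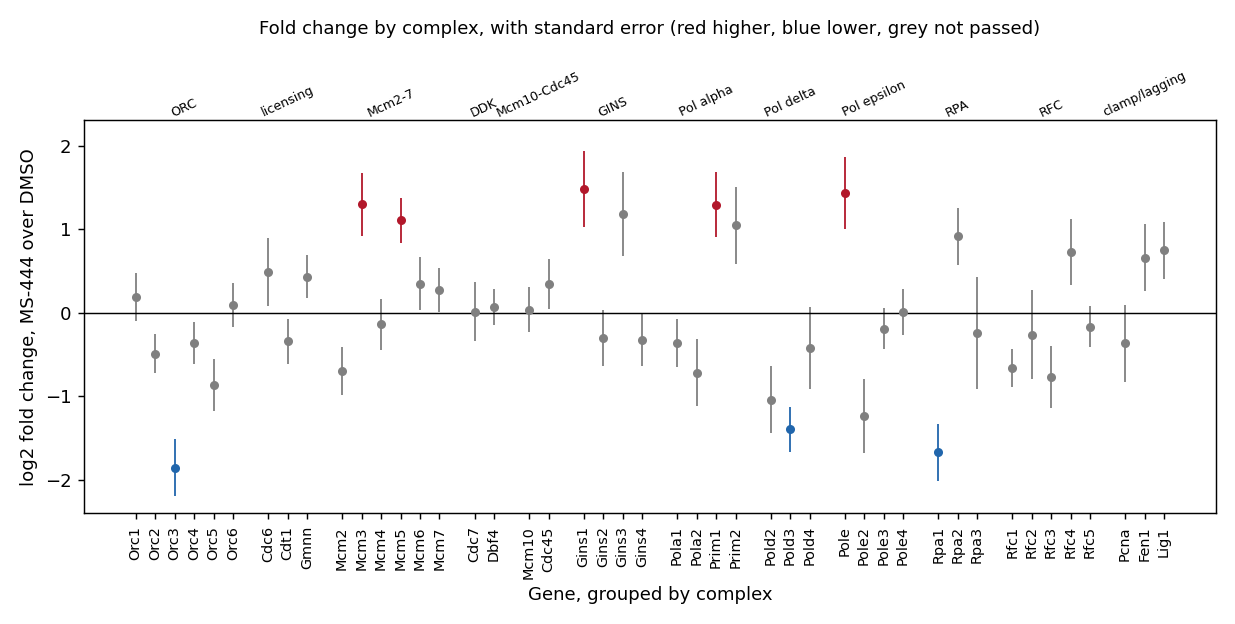
Log2 fold change of MS-444 over DMSO for the 45 tested genes, grouped by complex, with the standard error as a vertical line. The 5 red genes rose and the 3 blue genes fell; grey genes did not pass, and the 3 tested subunits of polymerase delta all lie below 0.

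In polymerase alpha-primase, which lays down primers, the catalytic primase subunit rose and the other 3 genes did not pass. Prim1 (ENSMUSG00000025395) stood at 50.8, 30.6 and 17.4 CPM in DMSO and 104.0, 74.4 and 62.4 CPM in MS-444. The DMSO libraries spread 2.93-fold among themselves, and the rise was 2.45-fold (log2 fold change 1.29, SE 0.39, edgeR adjusted p = 0.035). Prim2, the regulatory primase subunit, had a log2 fold change of 1.05 (SE 0.46, edgeR adjusted p = 0.12), at 5.87 to 13.6 CPM in DMSO and 10.7 to 28.6 CPM in MS-444. Pola1, the catalytic polymerase subunit and the one with the most counts, stood at 98.7, 192.0 and 136.3 CPM in DMSO and 120.2, 96.2 and 116.5 CPM in MS-444 (log2 fold change -0.36, SE 0.29). Pola2 had a log2 fold change of -0.71 (SE 0.40). Prim1 took 14.3% to 36.2% of the complex's CPM per kb in DMSO and 40.8% to 47.6% in MS-444.

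Polymerase delta, the main lagging-strand polymerase, had negative log2 fold changes in its 3 tested subunits, and 1 of them fell. Pold3 (ENSMUSG00000030726), an accessory subunit, went from 292.2, 361.6 and 487.6 CPM in DMSO to 165.6, 118.3 and 150.7 CPM in MS-444. The groups were clearly apart, a 2.63-fold fall (log2 fold change -1.39, SE 0.27, edgeR adjusted p = 0.0074). Pold2, another accessory subunit, stood at 11.99, 25.8 and 22.7 CPM in DMSO and 6.59, 13.4 and 9.46 CPM in MS-444, where the groups overlapped through DMSO replicate 1 (log2 fold change -1.04, SE 0.40, edgeR adjusted p = 0.081). It passed in 3 of the 15 alternatives, among them the fits without that library (-1.35) and with the GC and length adjustment (-1.55). The smallest subunit, Pold4, had a log2 fold change of -0.42 (SE 0.49) on 8 to 24 counts per library. Pold1, the catalytic subunit, was nearly undetected, with 4, 0 and 1 counts in DMSO and 0, 0 and 8 in MS-444. The 3 libraries with a count of 0 allow levels of up to 0.691 CPM (DMSO replicate 2), 1.10 CPM (MS-444 replicate 1) and 0.896 CPM (MS-444 replicate 2), for counting error only. Pold3 had far more reads than the catalytic gene, at 124.0 ± 32.3 against 0.177 ± 0.246 CPM per kb in DMSO (SD, n = 3).

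In polymerase epsilon, the leading-strand polymerase, 1 gene rose and 3 did not pass. Pole (ENSMUSG00000007080), the catalytic subunit, rose from 11.6, 5.76 and 5.36 CPM in DMSO to 28.6, 14.0 and 17.7 CPM in MS-444, or 2.70-fold (log2 fold change 1.43, SE 0.43, edgeR adjusted p = 0.035). The lowest MS-444 library was just above DMSO replicate 1, and 21 to 78 counts per library lay behind these levels. Pole2, its closest partner in the complex, had the largest negative log2 fold change that did not pass, -1.24 (SE 0.44, edgeR adjusted p = 0.063). It stood at 28.0, 17.0 and 10.7 CPM in DMSO and 4.76, 10.2 and 8.25 CPM in MS-444, without overlap. Pole2 passed with DESeq2 (-1.27), without a filter (-1.28), under the GC and length adjustment (-1.34) and without DMSO replicate 3 (-1.56). Pole4, a histone-fold subunit, had the most counts, at 555.3, 587.7 and 382.5 CPM in DMSO and 360.8, 639.9 and 535.0 CPM in MS-444, with wide overlap (log2 fold change 0.01, SE 0.28). Pole3, its partner, had a log2 fold change of -0.19 (SE 0.24).

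RPA, the trimer that covers single-stranded DNA, had 1 fallen subunit. Rpa1 (ENSMUSG00000000751), the large DNA-binding subunit, stood at 54.8, 66.1 and 119.7 CPM in DMSO and 23.1, 22.1 and 30.3 CPM in MS-444. The fall was 3.18-fold (log2 fold change -1.67, SE 0.34, edgeR adjusted p = 0.0091), and DMSO replicate 3 was the highest library. Rpa2, the middle subunit, pointed upward, at 106.7, 51.8 and 53.8 CPM in DMSO and 154.6, 146.1 and 98.5 CPM in MS-444 (log2 fold change 0.91, SE 0.34), and did not pass (edgeR adjusted p = 0.069). DMSO replicate 1 overlapped with MS-444, and Rpa2 passed in 5 of the 15 alternatives, 4 of them with all 6 libraries and 1 without DMSO replicate 1 (1.27). Rpa3, the small subunit, varied most between libraries of a group among the tested members, at 44.8, 148.9 and 26.5 CPM in DMSO and 16.1, 85.4 and 84.7 CPM in MS-444. Its highest library exceeded its lowest 5.61-fold in DMSO and 5.30-fold in MS-444 (log2 fold change -0.24, SE 0.67).

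None of the 5 RFC genes passed, and 4 of their log2 fold changes were negative, with a median of -0.26. Rfc1, the large subunit of the clamp loader, had the most counts and stood at 271.8, 267.0 and 291.9 CPM in DMSO and 206.6, 163.4 and 156.3 CPM in MS-444. Its groups did not overlap, and its log2 fold change of -0.66 (SE 0.23) came close to the threshold (edgeR adjusted p = 0.055). It passed with DESeq2 (-0.68), limma voom (-0.67), the GC and length adjustment (-0.65) and without MS-444 replicate 1 (-0.85). Among the small subunits, Rfc3 (-0.77, SE 0.37) and Rfc4 (0.72, SE 0.39) had log2 fold changes of opposite sign, each without overlap of the groups. Those of Rfc2 and Rfc5 were -0.26 (SE 0.53) and -0.17 (SE 0.24).

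The sliding clamp gene Pcna could not be read apart from its copy. Pcna stood at 223.9, 194.1 and 54.3 CPM in DMSO and 78.0, 158.3 and 129.3 CPM in MS-444 (log2 fold change -0.37, SE 0.46, edgeR adjusted p = 0.58). DMSO replicate 3 was the lowest library and DMSO replicate 1 the highest, so that the MS-444 libraries lay inside the DMSO range. The processed pseudogene Pcna-ps2, 99.2% identical to Pcna over 781 bases, stood at 265.5, 180.2 and 47.2 CPM in DMSO and 85.0, 187.0 and 152.1 CPM in MS-444, nearly the same profile. Summed, both rows gave 489.3, 374.3 and 101.6 CPM in DMSO and 163.0, 345.3 and 281.5 CPM in MS-444, again with the MS-444 libraries inside the DMSO range. The sources used here do not say how reads that match several genes were counted. Fen1, which trims primer flaps, and Lig1, which seals nicks, had log2 fold changes of 0.66 (SE 0.40, edgeR adjusted p = 0.24) and 0.75 (SE 0.34, edgeR adjusted p = 0.13). Lig1 went from 7.20 to 9.21 CPM in DMSO to 12.5 to 17.0 CPM in MS-444 without overlap, and Fen1 overlapped through DMSO replicate 3.

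Levels differed widely between members. Per kilobase of the longest annotated transcript, the highest levels in DMSO were those of Dbf4 at 316.3 ± 29.6, Pole4 at 287.4 ± 62.4, Gmnn at 286.4 ± 61.1 and Orc6 at 216.1 ± 54.2 CPM per kb (SD, n = 3). The first 3 did not differ beyond their spread. The median member stood at 16.3 CPM per kb in DMSO and 19.1 in MS-444. Pole at 1.06 ± 0.49, Rfc2 at 1.63 ± 0.98 and Lig1 at 2.61 ± 0.33 CPM per kb were the lowest tested members in DMSO. In MS-444 the same 4 genes led, with Gmnn first at 386.6 ± 84.1 and Dbf4 at 331.8 ± 45.6 CPM per kb, a difference within their SD. These levels use transcript lengths from GENCODE M21, which need not be the transcripts present in embryos, and the order changed with the length used. Per kilobase of the median transcript, Pole4 led in DMSO at 784.7 CPM per kb, followed by Orc2 at 465.1, Gmnn at 430.9 and Dbf4 at 378.2.

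**Figure D5:**
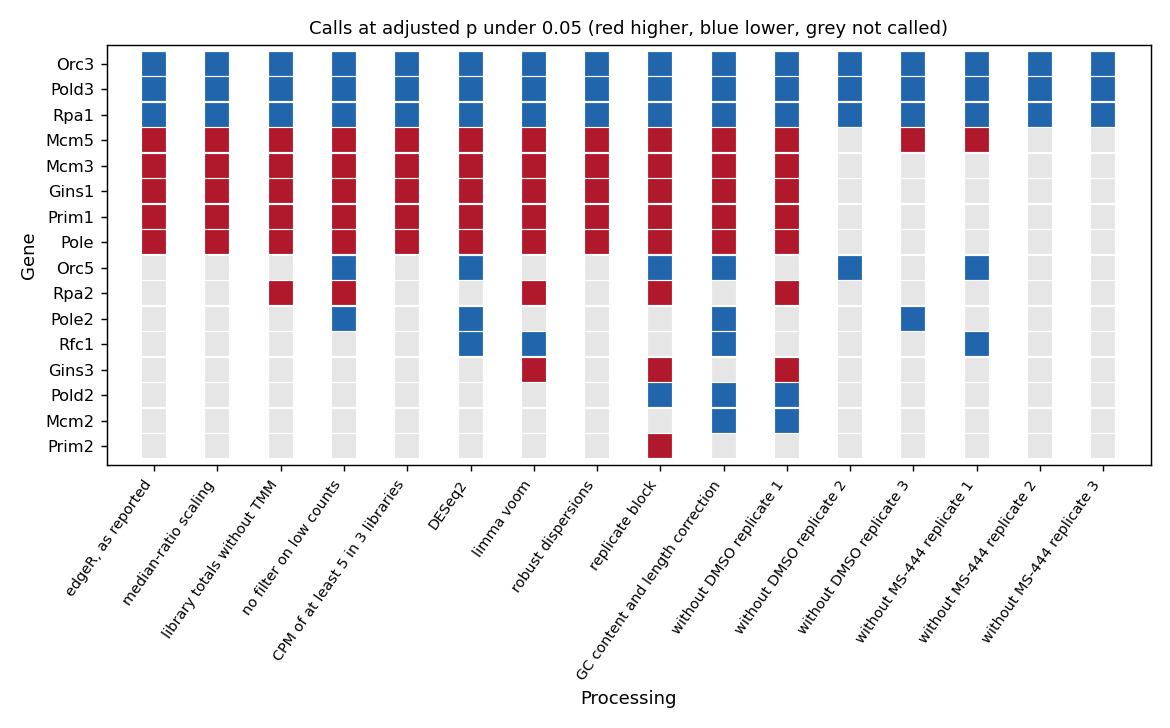
Calls at an adjusted p under 0.05 for the 16 replication genes that were called in at least 1 fit, with processing alternatives as columns. Orc3, Pold3 and Rpa1 are called in every column; the lost calls of the 5 risen genes all lie in columns that leave out 1 library.

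Genes that assist replication outside the core machinery were counted in 9 lists grouped by role, with 72 of 78 genes tested. Of these, 4 rose, 15 fell and 53 did not pass, or 26.4% called beside 25.5% of all genes. Falls outnumbered rises here, whereas 14.4% of all genes were called higher and 11.1% lower. The edgeR adjusted p of the 19 called genes ran from 0.0084 to 0.045. Among 9 genes for chromatin behind the fork, 0 rose and 4 fell (44.4% called), with a median log2 fold change of -0.68. The H3-H4 chaperone Asf1b went from 500.9, 418.5 and 478.2 to 229.0, 280.2 and 220.6 CPM (log2 fold change -0.94, SE 0.22, edgeR adjusted p = 0.015). The FACT subunit Supt16 fell by 1.195 and the hemimethylated-DNA reader Uhrf1 by 1.15 on the log2 scale, and the fourth was Chaf1a (-1.09), the large subunit of the CAF-1 chaperone. Uhrf1 was called in each of the 15 alternatives. The calls of Asf1b and Supt16 were lost without MS-444 replicate 3 alone, and that of Chaf1a was lost in 6 alternatives, 5 of which left out a library.

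Among 15 genes of fork protection and the checkpoint, 0 rose and 4 fell, so 26.7% were called, all of them lower. Of all genes, 25.5% were called in either direction and 11.1% lower. The fork-remodelling helicase Zranb3 fell by 1.43, the checkpoint clamp subunit Hus1 by 1.15, Timeless of the fork protection complex by 1.26 and the checkpoint kinase Chek1 by 0.74 on the log2 scale. Chek1 was the most abundant of these, at 794.4, 756.2 and 731.8 CPM in DMSO and 492.0, 485.4 and 393.1 CPM in MS-444. Zranb3 was called in each alternative, Hus1 was lost without MS-444 replicate 3, and Chek1 and Timeless were lost in 4 and 5. Of 11 translesion and repair polymerase genes, 3 fell, namely Polk (-1.76), Polb (-1.16) and Poli (-2.42), and Polq rose (1.39), which made 36.4% called beside 25.5% of all genes. Polk was called in each alternative, Poli was lost without DMSO replicate 3 or MS-444 replicate 2, and Polb and Polq were lost in 4 and 5 fits, each without a library. Poli was low, at 8.80, 11.3 and 12.5 CPM in DMSO and 0.366, 0.896 and 4.37 CPM in MS-444. With 1 library left out, its log2 fold change ran from -4.00 to -2.06.

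Of the 3 tested genes for alternative clamp loaders and clamp unloading, Dscc1 (1.85) and Chtf8 (1.83) rose, subunits of the loader that works with cohesion. That made 66.7% called, and the shares of this and the following lists stand beside 25.5% of all genes. Dscc1 stood at 6.80, 3.45 and 5.10 CPM in DMSO and 16.9, 19.7 and 17.96 CPM in MS-444 and was called in each alternative, while Chtf8, at 5.38 CPM or less, was lost in 6 of 13. In primer removal and topology the topoisomerase Top2b (-1.27) and the exonuclease Exo1 (-0.85) fell, of 7 tested (28.6% called). Top2b was lost without MS-444 replicate 3, and Exo1 in 6 alternatives. Mcm8 (-1.13), a helicase related to the ring, fell among 3 tested genes (33.3% called). The E2F-pathway repressor Rbl1 (-0.95) fell among 11 (9.09% called). For each of Mcm8 and Rbl1, 5 alternatives ended the call. The ORC-associated gene Lrwd1 (1.54) rose among 8 origin firing factors (12.5% called), at a mean of 5.89 CPM in MS-444. It lost its call in 11 of 14 alternatives. Chtf8 and Lrwd1, both among the 4 rises of the related lists, stood at 0.691 to 2.04 and 1.53 to 2.40 CPM in DMSO. They passed the low-count filter only through the MS-444 libraries. Without that filter neither was called (edgeR adjusted p = 0.076 and 0.096). None of the 5 genes for turnover of Cdt1 passed.

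HuR binds U-rich and AU-rich stretches, mostly in the untranslated end of mRNAs. The letters TATTTAT, an AU-rich core searched on the transcript strand only, were present after the stop codon of the longest coding transcript in 7 of 45 tested members (15.6%), against 31.2% of 10400 tested genes. The members' 3′ untranslated regions were also shorter, at a median of 526 against 1144 bases. Of the 5 genes that rose 1 held a match (Mcm5), and of the 3 that fell 0 did. Over the whole table, 25.15% of 1467 genes called higher and 31.57% of 1213 called lower held a match. The Mcm2 and Mcm5 matches are shown because these genes of 1 complex differed in the sign of their fold change, with the matched letters in capitals.
Mcm2: taaatgacTATTTATtcttctgc
Mcm5: cagggcttTATTTATagcaagtg
The other 5 matches were in Orc1, Cdc6, Cdc7, Cdc45 and Pole4, none of which passed.

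Strand was not given for the counts, and exons of several members overlap genes on the other strand, among them Rfc4 with Eif4a2 (461 to 687 counts per library), Orc6 with Vps35 (492 to 1289), Orc4 with Mbd5 (452 to 1043) and Gins2 with Gse1 (75 to 370). Reads from the overlapping stretches of these pairs cannot be told apart. Of the 8 members called, Pole overlaps the antisense gene Gm15792 and Rpa1 a miRNA gene on its own strand, neither of which has a row in the table.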

How the data were processed

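RNA-seq read counts of 6 libraries were analysed, 3 per group. The authors deposited 1 table of raw counts per gene, named by Ensembl identifiers, and its values are whole numbers whose totals differ between libraries. Per the submitters' processing notes, HISAT2 and Cufflinks 2.2.1 were used with genome build mm9; counting program, annotation and strand: not given in the sources used here. GENCODE M21 gave symbols for 29075 of 29139 identifiers and transcript lengths. Counting error alone is covered where a limit from a count of 0 (3 counts) is given, since PCR reads are not independent molecules.

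Genes were filtered by edgeR's expression filter (minimum of 10 counts), which left 11864 genes with 98.8% to 99.3% of each library's counts. After TMM scaling (factors 0.932 to 1.11), the groups were compared by the quasi-likelihood test of edgeR (two-sided), and p-values were adjusted by Benjamini-Hochberg over all genes. Standard errors were derived from that test. Every pair of libraries differed by more than sampling noise (chi-square per degree of freedom of 8.17 or more). Near-identical copies were transcripts of other genes with at least 95% identity over 300 bases. Alternatives used DESeq2, limma voom, other scalings and filters, and left out each library. DESeq2 1.42.0, limma 3.58.1 and edgeR 4.0.16 were run in R 4.3.3.

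The members, lists and tests were chosen with earlier results of these data known. Values in each library were given for members past the threshold, for the member of each complex with the most counts and for the largest rise and fall that did not pass, and up to 3 genes past the threshold were named per related list. Any other gene named was picked with its values known.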

Additional observations from a re-analysis of the deposited data

How the results depend on the processing

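With all 6 libraries, 5 members were higher and 3 lower. Median-ratio scaling, robust dispersions and a filter at 5 CPM in 3 libraries kept both counts. More members were lower without a filter (5), with DESeq2 (6) and when adjusted for GC content and length (8). Calls were gained upward too. Rpa2 was higher without TMM, without a filter and with limma voom, which also called Gins3 higher and Rfc1 lower. Without TMM the median log2 fold change was 0.20 over all genes, 0.043 over members, 0.23 for the Cdc7 and Dbf4 pair, 0.84 for the clamp and lagging-strand genes and -0.069 for RFC, and 881 genes were lower, with 2179 higher (71.2% of calls against 56.3%). The GC and length adjustment gave 2116 lower and 1628 higher genes (43.5% higher) and medians of -0.057 for the licensing genes, 0.49 for the clamp and lagging-strand genes and -1.46 for polymerase delta. Related genes called higher were 2 without a filter, at 5 CPM or with DESeq2. With the median transcript length the median DMSO level was 47.6 CPM per kb. The causes were not tested.

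Leaving out 1 library gave 0 to 7 members higher and 3 to 5 lower, 659 to 2099 genes higher and 500 to 1721 lower, and 1 to 5 related genes higher and 4 to 18 lower. The median log2 fold change ranged from -0.23 to 0.0055 for the members, from 0.099 to 0.35 for Mcm2 to Mcm7, from -0.080 to 0.028 for Cdc7 and Dbf4, from -0.70 to -0.16 for RFC, from 0.36 to 0.73 for the clamp and lagging-strand genes from -0.024 to 0.48 for the licensing genes, from -0.69 to 0.68 for RPA, from 0.038 to 0.45 for polymerase alpha-primase, from 0.18 to 0.57 for GINS, from 0.017 to 0.23 for Mcm10 and Cdc45, from -0.27 to -0.025 for polymerase epsilon, from -0.61 to -0.38 for ORC and from -1.35 to -0.89 for polymerase delta. The sign changed for the members, Cdc7 and Dbf4, the licensing genes and RPA.

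Replicate numbers are shared between groups. Deviations of same-numbered libraries correlated at 0.054, 0.37 and -0.10 across genes, and those of differently numbered libraries at -0.462 to 0.361. With 3 libraries per group, these values cannot decide whether same-numbered libraries belong together. With the replicate block, 8 members were higher and 5 lower. Low members rest on few counts per library (11 to 37 for Gins1 in DMSO), which limits their precision.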

Other observations

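Ratios of subunits within a library do not depend on how libraries are scaled. The pairs below were chosen after their values were seen, are values only and were not tested. The ratio of Rpa2 to Rpa1 counts was 1.95, 0.784 and 0.450 for the DMSO libraries in order of replicate, against 6.70, 6.61 and 3.25 for MS-444. The ratio of Orc1 to Orc3 counts was 2.78, 2.42 and 2.93 in DMSO and 11.1, 10.6 and 11.9 in MS-444, with little spread inside either group. Mcm5 to Mcm2 gave 0.136, 0.127 and 0.0832 in DMSO and 0.368, 0.460 and 0.325 in MS-444. Pole to Pole2 gave 0.414, 0.338 and 0.5 in DMSO and 6, 1.38 and 2.15 in MS-444. In each pair a gene with a positive log2 fold change was set over one with a negative log2 fold change. That choice favoured the lack of overlap between the groups seen for the 4 ratios.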
